A study of Mus musculus with 17 samples.

Results

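The genes described here mark the intercalated cells of the renal collecting duct. They are the 10 listed genes Foxi1, Slc4a1, Slc26a4, Atp6v1b1, Atp6v1g3, Atp6v0d2, Atp6v0a4, Atp6v1c2, Aqp6 and Rhbg, chosen by name and matched to the Ensembl identifiers of the count files, out of 55806 identifiers in all. All 10 were found in each of the 17 libraries with 1 identifier each. RNA had been sequenced from 8 cultures of primary tubular epithelial cells (PTEC) and from the kidneys of 9 male mice, all labelled as wild-type C57BL/6Rj, a strain that the methods of the study spell C57BL/6JRj or C57BL/6J. PTEC had grown out of tubular fragments of collagenase-digested kidneys in a renal epithelial medium. The non-senescent PTEC were 4 cultures harvested on day 6 without irradiation, and the senescent PTEC were 4 cultures harvested on day 16 after γ-irradiation with 10 Gray. Irradiation and time in culture changed together and cannot be told apart. The whole kidneys came from mice aged 3, 12 and 24 months with 3 animals each, and a piece of the right kidney had been frozen.

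Intercalated cells are the acid-base cells of the collecting duct and lie scattered among the principal cells, which handle water and sodium. Type A cells secrete protons through an apical vacuolar H+-ATPase (V-ATPase) and return bicarbonate to the blood through the anion exchanger band 3, encoded by Slc4a1. Type B cells secrete bicarbonate through pendrin, encoded by Slc26a4. The forkhead transcription factor Foxi1 is required for intercalated cells to form and drives several of their genes. The V-ATPase is built from a cytosolic V1 part, which hydrolyses ATP, and a membrane V0 part, which carries the protons, and several subunits exist as a widely expressed isoform and an isoform that is enriched in the intercalated cell. There are 5 such pairs among the members, B1 with B2, G3 with G1, C2 with C1, a4 with a1 and d2 with d1. Rhbg is an ammonia transporter of the basolateral membrane, and Aqp6 is an intracellular aquaporin of type A cells that conducts anions.

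Between 26963442 and 35409144 reads per library were counted on genes in PTEC, from 37311247 to 49471409 in 3-month-old, from 54097073 to 59718029 in 12-month-old and from 62761670 to 66894790 in 24-month-old kidneys. The 3-month-old kidneys were therefore the shallowest, and they had been counted on another gene set than the older ones, so that depth, gene set and young age cannot be told apart. The kidneys also differed in the balance of short and long transcripts. Genes with up to 1000 bases of exon had a median log2 deviation from the mean of the 9 kidneys of 0.36 in replicate 3 at 3 months and of 0.48 in replicate 2 at 12 months, called the libraries rich in short transcripts here, and of -0.35 in replicate 2 at 3 months. Among the cultures the median log2 deviation of such genes was 0.60 in non-senescent replicate 3 and between -0.26 and 0.11 in the others. Genes with over 8000 bases of exon were at -0.55 in that replicate. The labels call PTEC proximal tubular cells, and this was checked against 12 proximal tubule genes, of which 5 passed the filter on low counts. The endocytosis receptor Lrp2 had a mean of 203 CPM in non-senescent and 227 CPM in senescent PTEC, and the phosphate transporter Slc34a1 had 9.12 and 0.025 CPM. The summed level of the 12 genes was 123, 148, 153 and 720 CPM in non-senescent PTEC. It was 341, 207, 155 and 329 CPM in senescent PTEC and between 13625 and 24126 CPM in the kidneys. The non-senescent mean of Lrp2 was above the whole sum in each of replicates 1 to 3, so it rested on replicate 4. CPM is the usual unit of read counts relative to library size, here with TMM scaling done apart for PTEC and for kidneys, so levels of the 2 experiments are set side by side without a test.

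Most intercalated cell genes were near the limit of detection in the cultures. Of the 10 members, 8 had between 0 and 13 reads in every culture and did not pass the filter on low counts. Foxi1, the transcription factor, had 0, 1, 1 and 3 reads in the non-senescent PTEC and 0 reads in each senescent culture. Aqp6 had 0, 1, 0 and 3 reads and again 0 reads in each senescent culture. For both genes 0 reads allow a level of up to 0.0810 to 0.104 CPM, the value of 3 reads, and this limit covers counting error only. Slc4a1 had at most 2 reads and Rhbg at most 3 reads per culture. Slc26a4 had between 2 and 3 reads in non-senescent and between 3 and 7 reads in senescent PTEC. In the V-ATPase, Atp6v1g3 had at most 4 reads, and Atp6v1b1 had 3, 1, 2 and 12 reads in non-senescent and 2, 0, 0 and 1 reads in senescent PTEC. Atp6v1c2 had 10, 2, 13 and 3 reads against 0, 2, 4 and 0 reads. At this depth no difference between the groups could be read from these 8 genes with the filter in place. Without the filter Atp6v1c2 was called, at a log2 fold change of -2.31 and an adjusted p of 0.0488.

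**Figure D1:**
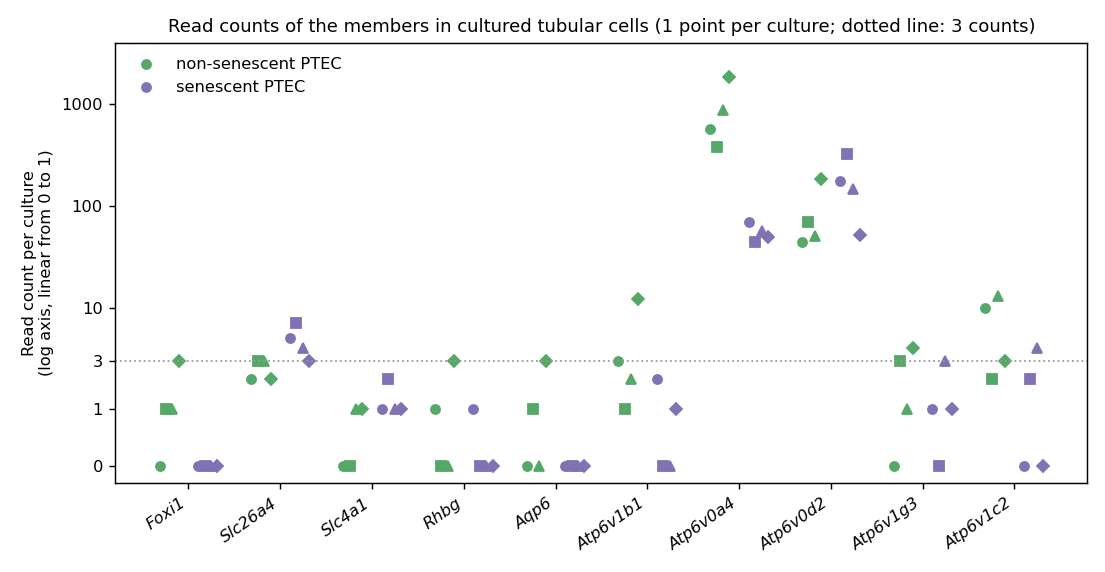
Read counts of the 10 members in each PTEC culture on a log axis that is linear from 0 to 1, with green points for the 4 non-senescent and purple points for the 4 senescent cultures and a dotted line at 3 counts. Atp6v0a4 lies between 381 and 1855 reads in the non-senescent and between 44 and 70 reads in the senescent cultures, Atp6v0d2 overlaps, and the other 8 members do not exceed 13 reads.

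Atp6v0a4 was the exception and fell in senescent PTEC. It encodes the a4 isoform of the large membrane subunit of the V-ATPase, which is mutated in inherited distal renal tubular acidosis and is found in the proximal tubule as well as in intercalated cells. Its level was 17.7, 12.5, 34.0 and 68.5 CPM in the non-senescent cultures and 2.25, 1.47, 1.51 and 1.69 CPM in the senescent cultures. Every non-senescent culture lay above every senescent one, and replicate 4 of the non-senescent PTEC was the highest. The means were 33.2 ± 25.3 (SD, n = 4) and 1.73 ± 0.36 CPM, and the log2 fold change was -4.26 (SE 0.53, adjusted p = 0.000237), which is 19.1-fold lower. Without non-senescent replicate 4 the log2 fold change was -3.63, with an adjusted p of 0.000221, and over all 8 fits that each left out 1 culture it lay between -4.53 and -3.63. Among the 15434 genes tested, 19.7% were down-regulated and 20.1% up-regulated in senescent PTEC, so that 1 called gene of 2 tested members says nothing about the members as a group.

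The second member that passed the filter was Atp6v0d2, the d2 isoform of the subunit that joins V1 to V0, which is also abundant in osteoclasts and in some macrophages. Its level was 1.35, 2.30, 1.96 and 6.76 CPM in non-senescent and 5.63, 10.8, 3.97 and 1.80 CPM in senescent PTEC, so the groups overlapped. The log2 fold change of 0.85 (SE 0.60) did not pass the test (adjusted p = 0.285), and it was 1.56 without non-senescent replicate 4 (adjusted p = 0.0519) and 0.31 without senescent replicate 2. The summed level of 12 macrophage genes was 92.5, 146, 95.6 and 109 CPM in the non-senescent and 109, 251, 65.2 and 67.2 CPM in the senescent cultures. The culture with the most Atp6v0d2 had the highest sum among the senescent cultures but not among the non-senescent ones. Of 11 macrophage genes tested, 2 were down-regulated, Ptprc at -0.94 and Cd68 at -1.12 on the log2 scale, and the lysozyme gene Lyz2 had means of 35.1 CPM in non-senescent and 66.6 CPM in senescent PTEC without passing the test (adjusted p = 0.173). The 6 osteoclast genes summed to between 12.1 and 14.1 CPM in non-senescent and between 4.47 and 10.0 CPM in senescent PTEC, with Ocstamp and Dcstamp, which fuse osteoclast precursors, at 0 to 2 reads. Of 4 osteoclast genes tested, 2 were down-regulated, Acp5 at -1.58 and Calcr at -3.22 on the log2 scale. The part of these cells in the level of Atp6v0d2 was not tested.

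The gene that overlaps Atp6v0a4 on the opposite strand, Tmem213, shared 62 exonic bases with it and was looked at after its values were seen. It had 61, 58, 250 and 232 reads in non-senescent and 1, 0, 5 and 2 reads in senescent PTEC. On the same strand, D630045J12Rik shared 259 exonic bases with Atp6v0a4 and had between 499 and 1057 reads in non-senescent and between 565 and 644 reads in senescent PTEC. How the counting treated strand is not given in the sources used here, so a part of the reads of such neighbours cannot be told apart. Atp6v0a4 itself had between 381 and 1855 reads in non-senescent and between 44 and 70 reads in senescent PTEC, fewer than D630045J12Rik in 6 of the 8 cultures.

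No other V-ATPase gene tested was called down. Of the 20 listed V-ATPase subunits and accessory proteins outside the members, 19 were tested in PTEC, 3 were up-regulated, 0 were down-regulated by edgeR or DESeq2, with 0 negative values at an unadjusted p under 0.05, and 16 were not called. Among the latter, Atp6v0a2 had an adjusted p of 0.0314 but a log2 fold change of 0.41, under the threshold of 0.5. Those that rose were Atp6v0e2, a small membrane subunit (log2 fold change 1.01, SE 0.12, adjusted p = 0.000203), Atp6v1e1, a stalk subunit (0.66), and the accessory protein Atp6ap1 (0.59). The smallest value was that of the widely expressed Atp6v1b2 at -0.54 (adjusted p = 0.126). The median log2 fold change of the 19 genes was 0.16, against 0.00 over all tested genes, and their summed level was between 2170 and 3212 CPM in non-senescent and between 3120 and 3247 CPM in senescent PTEC.

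Per kilobase of exon, the a4 isoform amounted to 16.0, 14.0, 26.7 and 49.4 for every 100 of its widely expressed partner Atp6v0a1 in the non-senescent cultures, and to 1.55, 1.12, 1.34 and 1.19 in the senescent cultures. The groups did not overlap. The log2 ratio of the pair, taken with a prior count of 2, was lower by a difference of -4.13, with an exact two-sided permutation p of 0.0286, the smallest that 4 against 4 cultures allow, and 0.0571 adjusted over the 2 pairs that could be measured. With same-numbered cultures paired, a test added after the data were seen, the exact p was 0.125, the smallest that 4 pairs allow. Atp6v0a1 itself lay between 118 and 183 CPM in non-senescent and between 149 and 191 CPM in senescent PTEC. In order of level per kilobase, Atp6v0a4 led the members in non-senescent PTEC with a mean of 6.67 CPM per kb ahead of Atp6v0d2 with 1.14, and in senescent PTEC Atp6v0d2 with 2.04 was ahead of Atp6v0a4 with 0.35, in both groups without overlap between these neighbours. Atp6v0d2 amounted to between 0.69 and 3.32 for every 100 of Atp6v0d1 in non-senescent and between 0.82 and 4.46 in senescent PTEC, with a difference of 0.63 and an exact permutation p of 0.429.

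**Figure D2:**
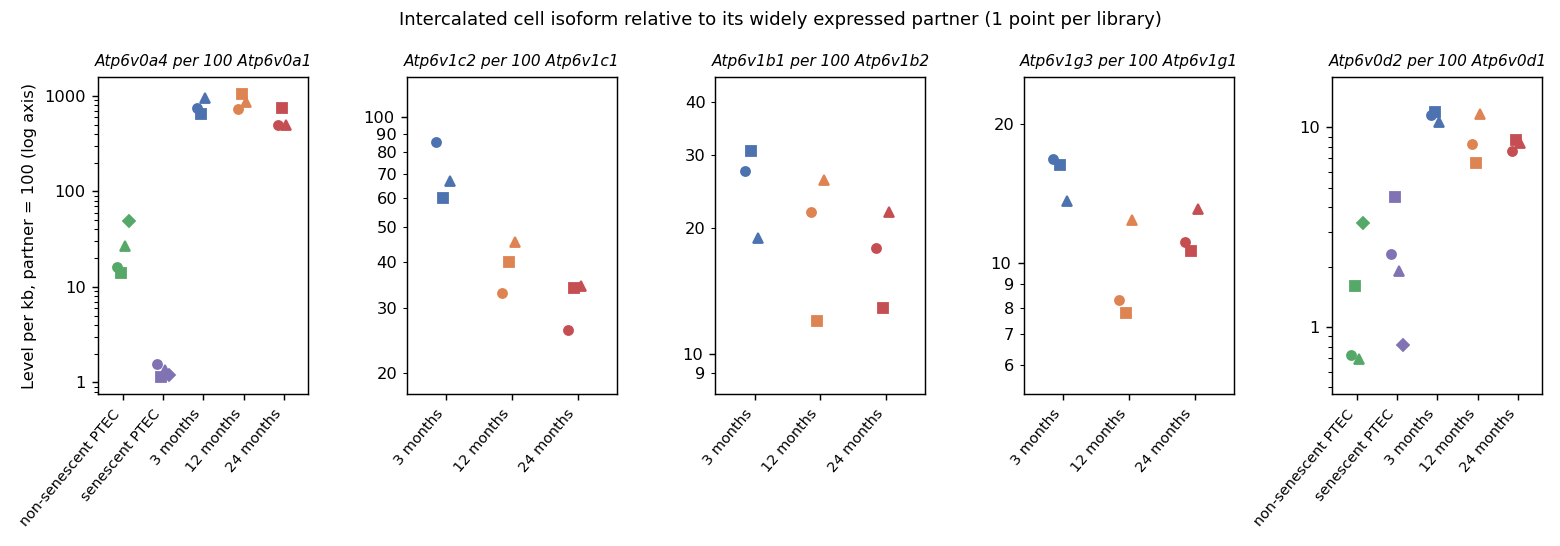
Level per kilobase of exon of each intercalated cell isoform for every 100 of its widely expressed partner in the same library, on log axes, with 1 point per library and PTEC shown only where the member was measurable. Atp6v0a4 exceeds Atp6v0a1 in each kidney, at 495 to 1049 for every 100, is below it in each culture, and the kidneys aged 3 months have the highest values of Atp6v1c2.

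Other genes of the collecting duct fell in the same cultures. Of 15 further intercalated cell genes 8 were tested in PTEC and 3 were down-regulated. DESeq2 called the same 3 and also called up Insrr, a receptor kinase that did not pass the filter of edgeR, at means of 0 and 0.0948 CPM. The genes that fell were Rhcg, an ammonia transporter of the apical membrane (log2 fold change -5.55, adjusted p = 0.0023), the bicarbonate transporter Slc4a9 (-2.02) and the carbonic anhydrase Car2 (-1.19). The largest value in this list was that of the anion exchanger Slc26a7, at 0.89 (adjusted p = 0.141). Of 9 principal cell genes 8 were tested and 6 were down-regulated. The median of their log2 fold changes was -3.52, and the smallest was that of the sodium pump regulator Fxyd4 at -6.53. Summed levels of the principal cell genes were 17.3, 22.7, 35.1 and 83.3 CPM in non-senescent and 5.47, 4.76, 16.6 and 15.7 CPM in senescent PTEC. Non-senescent replicate 4, with the most Atp6v0a4, also had the most of these genes and the highest proximal tubule sum of 720 CPM. The fibroblast and podocyte lists were higher in the senescent cultures without overlap, the osteoclast list was lower, and the sums of the endothelium, macrophage and urothelium lists overlapped. The list of the distal convoluted and connecting tubule, the segment before the collecting duct, overlapped too. Its sums were 36.8, 47.7, 17.2 and 49.4 CPM in non-senescent and 76.5, 99.8, 40.9 and 50.2 CPM in senescent PTEC. Of its 3 tested genes the magnesium channel Trpm6 was up-regulated and the kallikrein Klk1 down-regulated. Trpm6, with means of 32.5 and 65.6 CPM, made up most of these sums. DESeq2 called Trpm6 up and 4 genes down. These were Klk1 and, not passing the filter of edgeR, Calb1, Slc12a3 and Trpv5, each without overlap. The 7 fibroblast genes summed to between 14.5 and 102 CPM in non-senescent and between 108 and 411 CPM in senescent PTEC, with 4 of 6 tested genes up-regulated, and the 5 podocyte genes to between 90.7 and 206 CPM and between 213 and 465 CPM, with 2 of 4 up-regulated. The proximal tubule list had 2 down-regulated genes of 5 tested, and the loop of Henle list 5 of 6. DESeq2 called down 6 genes of the proximal tubule list, 5 of the loop of Henle list and 7 of the principal cell list. Over all genes, between 1686 and 3441 were called down in the 6 alternative fits of PTEC, with DESeq2 among them. The part of a different cell makeup of the cultures in the fall of Atp6v0a4 was not tested, and in bulk RNA fewer cells of a type and less RNA per cell cannot be told apart.

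In whole kidney all 10 members were expressed well above the limit of detection, with at least 320 reads in each library. Per kilobase of exon Atp6v0a4 was the most abundant member at each age, with 47.6 ± 12.7 CPM per kb (SD, n = 3) at 3 months, 51.4 ± 14.7 at 12 months and 50.1 ± 1.89 at 24 months. Atp6v1g3, the G3 isoform of a stalk subunit, was next with 30.0 ± 7.26, 18.2 ± 3.13 and 16.2 ± 2.20 CPM per kb. Its range did not overlap that of Atp6v0a4 at any age, and it overlapped that of the next gene at 12 and 24 months but not at 3 months. Slc26a4, Atp6v1b1 and Aqp6 followed at 17.3, 16.8 and 14.2 CPM per kb at 3 months, with overlapping ranges. The remaining members, Atp6v1c2, Atp6v0d2, Rhbg, Slc4a1 and Foxi1, lay between 7.33 and 9.64 CPM per kb at 3 months, each overlapping the next. In this order Atp6v1c2 held rank 6 at 3 months and rank 9 at 12 and 24 months. At 24 months Aqp6 with 11.9 CPM per kb did not overlap Atp6v0d2 with 6.74 CPM per kb below it.

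**Figure D3:**
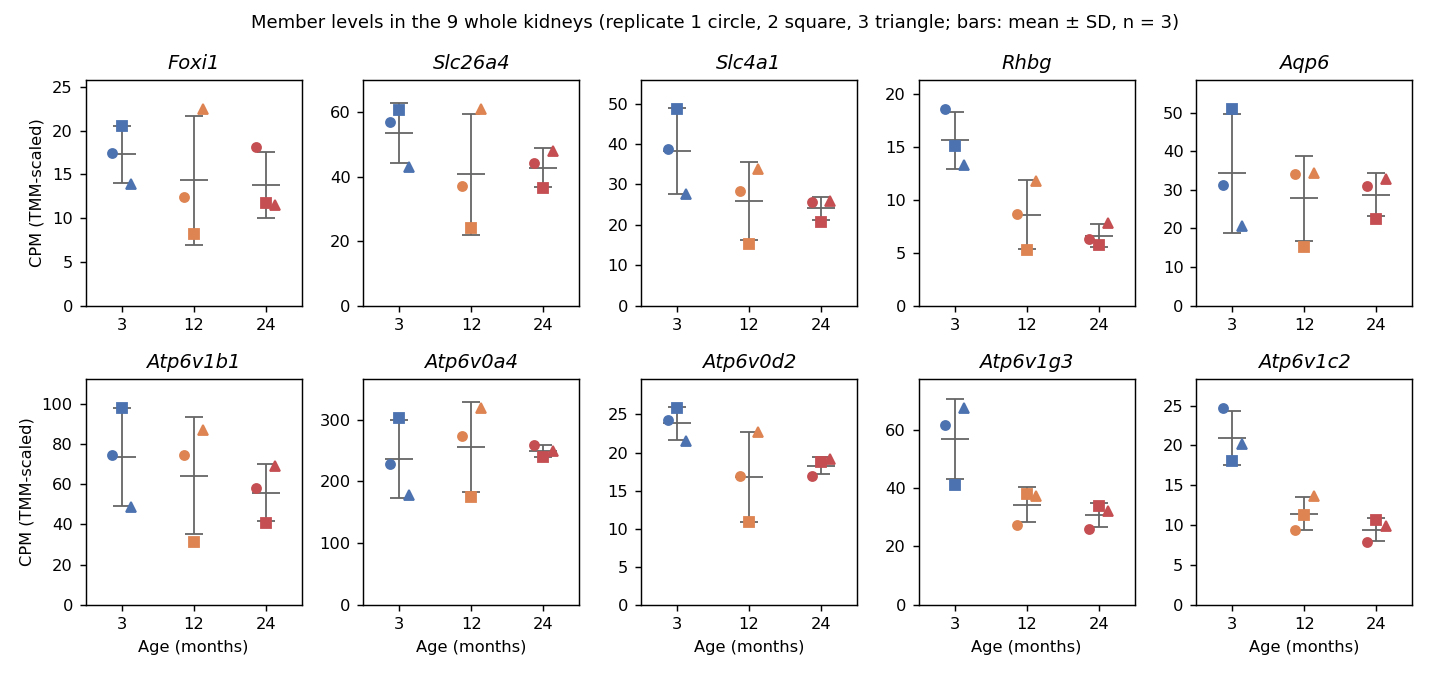
Level of each member in the 9 kidneys in CPM against age in months, with 1 point per mouse, the mean and the SD, and axes from 0. Atp6v1c2, Atp6v1g3 and Rhbg are higher in each of the 3 kidneys aged 3 months than in any older kidney, whereas Atp6v0a4 overlaps at all ages.

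The comparison of 24-month-old with 3-month-old kidneys asked how these genes differ with age. Atp6v1c2, the C2 isoform of the subunit that controls the assembly of V1 with V0, was down-regulated. It had 24.6, 18.1 and 20.2 CPM at 3 months and 7.82, 10.6 and 9.91 CPM at 24 months. The groups did not overlap, the log2 fold change was -1.15 (SE 0.20) and the adjusted p was 0.0212. With the replicate number as a block, although the numbers did not pair these ages, the adjusted p was 0.0791 at a similar fold change. The call was lost in 5 of the 6 fits that each left out 1 of these libraries. The log2 fold change then lay between -1.24 and -1.02, and the adjusted p was 0.0216 without replicate 2 at 3 months and between 0.051 and 0.103 in the other 5. Atp6v1c2 shares 50 exonic bases with the abundant Pdia6 on the opposite strand, whose reads could be told apart only by strand. Before scaling to library size, Pdia6 had between 9467 and 10415 reads at 3 months and between 14845 and 18950 reads at 24 months. The part of Pdia6 reads in the level of Atp6v1c2 was not tested. Of the 17067 genes tested, 0.451% were down-regulated and 1.89% up-regulated, against 1 and 0 of the 10 members. With single libraries left out, between 22 and 334 genes were down-regulated and between 52 and 460 up-regulated, against 77 and 322.

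Rhbg and Atp6v1g3 did not pass the test, although their groups did not overlap. Rhbg had 18.5, 15.0 and 13.3 CPM at 3 months and 6.29, 5.70 and 7.77 CPM at 24 months, and its log2 fold change was -1.24 (SE 0.28, adjusted p = 0.0612). Most of its exon sequence, 1190 bases, is shared with the predicted gene Gm38392 on the same strand, which had between 0 and 3 reads per library. How reads that lie in both genes were counted is not given in the sources used here. The level of Rhbg, also per kilobase, is therefore uncertain. Atp6v1g3 had 61.5, 41.1 and 67.2 CPM against 26.0, 33.9 and 32.1 CPM, and its log2 fold change was -0.89 (SE 0.22, adjusted p = 0.0787). DESeq2 called both genes, with adjusted p-values of 0.00288 for Rhbg and 0.00852 for Atp6v1g3, besides Atp6v1c2. Over all genes DESeq2 called 308 down and 727 up between 24 and 3 months. Without the pair of libraries rich in short transcripts, an alternative added after the data were seen, Rhbg, Atp6v1c2 and Slc4a1 were called by edgeR, with adjusted p-values of 0.0265, 0.0476 and 0.046.

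The other members had smaller values. Slc4a1 had 38.7, 48.7 and 27.6 CPM at 3 months and 25.7, 20.8 and 25.9 CPM at 24 months, without overlap, and a log2 fold change of -0.67 (adjusted p = 0.28). Band 3 is also the main membrane protein of red cells, and the summed level of the erythroid genes was 518, 374 and 900 CPM at 3 months and 315, 863 and 298 CPM at 24 months. The part of red cells in the level of Slc4a1 was not tested. Atp6v0d2 had 24.3, 25.8 and 21.5 CPM against 16.97, 18.7 and 19.2 CPM, also without overlap, at a log2 fold change of -0.38 (adjusted p = 0.389). Foxi1 had 17.4, 20.5 and 13.9 CPM against 18.1, 11.7 and 11.4 CPM, which overlapped. Slc26a4, Atp6v1b1 and Aqp6 overlapped as well, with log2 fold changes of -0.33, -0.40 and -0.26. Atp6v0a4 was the only member with a positive value, 0.08 (SE 0.25, adjusted p = 0.868), with 228, 303 and 178 CPM at 3 months and 259, 240 and 249 CPM at 24 months, and its sign turned to -0.09 without replicate 3 at 3 months. In all, 5 of 10 members had lower, non-overlapping groups, against 10.1% of all tested genes, and their median log2 fold change was -0.39, against 0.00 over all genes. The members are measured in the same libraries, and they are not independent of each other.

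At 12 months 0 of the 10 members passed edgeR's test, with 3 at an unadjusted p under 0.05 and 1, Atp6v1c2, called by DESeq2 (adjusted p = 0.00278). For the main fits the share of all tested genes under that unadjusted p is not given. Such counts, here and for the gene lists, can therefore not be set against a background. Over all genes DESeq2 called 576 down and 531 up between 12 and 3 months. Atp6v1c2 had 9.42, 11.3 and 13.6 CPM at 12 months, below each 3-month-old kidney, with a log2 fold change of -0.87 (SE 0.19, adjusted p = 0.0513). Rhbg, with 8.67, 5.26 and 11.8 CPM, and Atp6v1g3, with 27.4, 37.9 and 37.4 CPM, had log2 fold changes of -0.87 and -0.72 and likewise did not overlap the young kidneys. Thus 3 of 10 members had lower, non-overlapping groups, against 9.4% of all tested genes, and 1.36% of genes were down-regulated and 1.22% up-regulated between 12 and 3 months. The 24-month-old and 12-month-old kidneys overlapped for every member. The share of all tested genes without overlap was not counted for these ages, so nothing about the members is read from this. None of the 10 was called between 24 and 12 months by edgeR or DESeq2, and 0 had an unadjusted p under 0.05. Of all genes, 0.434% were down-regulated and 0.896% up-regulated in this comparison. With the replicate number as a block, 0 genes were called by edgeR in the fit of all kidneys, with 1930 at an unadjusted p under 0.05, and 903 were down-regulated and 1297 up-regulated when these ages were fitted alone, again with 0 members among them. The log2 fold changes of the members lay between -0.38 for Rhbg and 0.12 for Atp6v0d2. The comparisons with 3 months share the same 3 young kidneys.

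**Figure D4:**
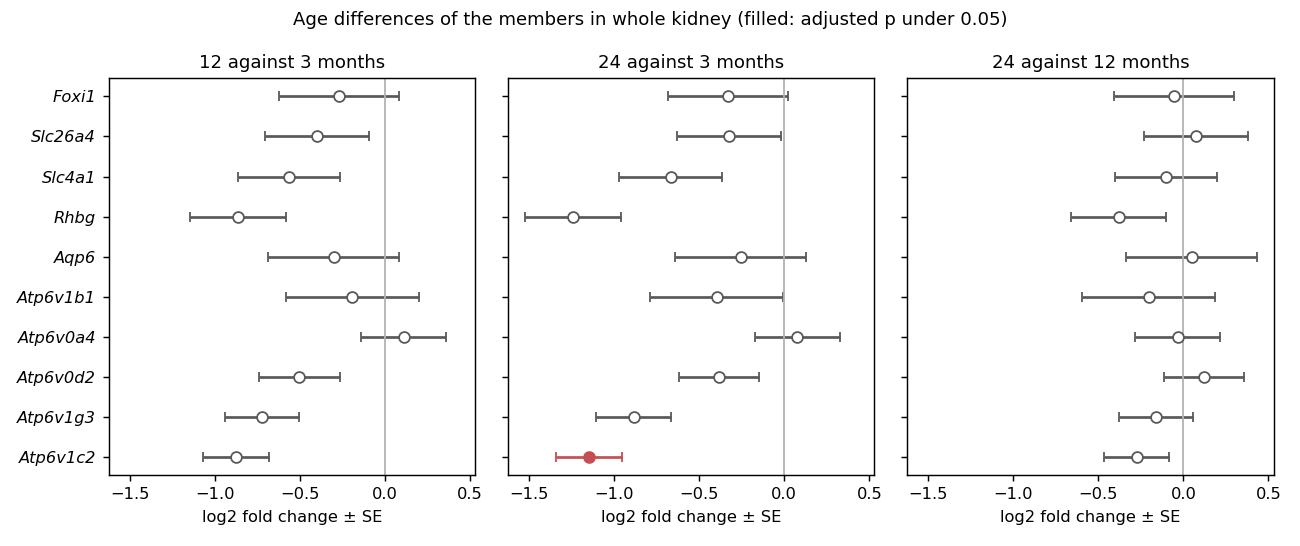
Log2 fold change and SE of each member in the 3 comparisons of kidney age, with filled red points for an adjusted p under 0.05. Atp6v1c2 at 24 against 3 months, at -1.15, is the only filled point, Rhbg, Atp6v1g3 and Atp6v1c2 lie farthest below 0 in both comparisons with 3 months, and Atp6v0a4 lies near 0 throughout.

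The isoform pairs gave the same genes against their widely expressed partners in the same library. For every 100 of Atp6v1c1, Atp6v1c2 amounted to 85.6, 60.0 and 66.8 at 3 months, to 33.0, 40.0 and 45.5 at 12 months and to 26.2, 34.0 and 34.4 at 24 months, per kilobase of exon. The young kidneys lay above all older ones, and Atp6v1c1 stayed between 72.4 and 80.1 CPM in the 9 kidneys. Atp6v0a4 was the reverse of the other isoforms in abundance, since it exceeded Atp6v0a1 in each kidney. It amounted to 646 to 947 for every 100 of Atp6v0a1 at 3 months, 736 to 1049 at 12 months and 495 to 750 at 24 months. Atp6v1b1, the B1 isoform of the ATP-binding ring and another gene of distal renal tubular acidosis, amounted to between 12.0 and 30.7 for every 100 of Atp6v1b2 over the 9 kidneys. Atp6v1g3 amounted to between 7.79 and 16.8 for every 100 of Atp6v1g1, with the 3-month-old kidneys, at 13.6 to 16.8, above the others. Atp6v0d2 amounted to between 10.7 and 11.9 for every 100 of Atp6v0d1 at 3 months and between 7.59 and 8.67 at 24 months, without overlap. With 3 against 3 mice the smallest exact two-sided permutation p is 0.1. It was reached by Atp6v1c2, Atp6v1g3 and Atp6v0d2 at 24 against 3 months, with differences in the log2 ratio of -1.16, -0.42 and -0.47, and by Atp6v1c2 and Atp6v1g3 at 12 against 3 months, with -0.84 and -0.74. Adjusted over the 5 pairs these were 0.167 and 0.25, and no pair can pass a threshold of 0.05 in this design.

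Among the V-ATPase genes outside the members, 1 of 19 tested was called at 24 against 3 months. This was Atp6v0c, the subunit of the proton-carrying ring, which rose from 67.2, 85.7 and 51.2 CPM to 206, 163 and 209 CPM (2.83-fold, adjusted p = 0.02). The gene has a processed pseudogene, Atp6v0c-ps2, and reads of near-identical copies may have been split between them. This was not tested, and the value of Atp6v0c is uncertain. The smallest value was that of Atp6v0b, another ring subunit, at -0.82 (adjusted p = 0.354), and the median of the list was 0.02. At an unadjusted p under 0.05, 2 genes were lower and 1 was higher. Their summed level lay between 3130 and 3678 CPM at 3 months and between 3094 and 3126 CPM at 24 months, without overlap for the whole list. At 12 against 3 months 0 of the 19 were called by edgeR, with 1 at an unadjusted p under 0.05, and 1 was called by DESeq2. Both were Atp6v0c, at an adjusted p of 0.0512 by edgeR.

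The 15 further intercalated cell genes were lower in 13 cases at 24 against 3 months, and 0 passed edgeR's test in either direction, with 6 lower ones at an unadjusted p under 0.05 and 1, the metabolite receptor Oxgr1, called by DESeq2. Their median log2 fold change was -0.58, with the carbonic anhydrase Car15 at -1.51 (adjusted p = 0.193) and the transcription factor Tfcp2l1 at 0.23 as the extremes. At 12 against 3 months 13 of 15 were again lower with a median of -0.49, 0 were called by edgeR with 3 at an unadjusted p under 0.05, and DESeq2 called 3, Avpr1a, Car2 and the homeobox factor Hmx2. The smallest value was that of the vasopressin receptor Avpr1a at -1.19 (adjusted p = 0.0795). The principal cell genes, which come from the neighbouring cells of the same duct, were lower in 9 of 9 cases at both ages. Their medians were -0.89 at each age, and 1 was called down at 24 months and 3 at 12 months. At an unadjusted p under 0.05, 7 were lower at 24 months and 6 at 12 months, and DESeq2 called 3 and 4 down. Avpr2, the vasopressin receptor of principal cells, was called at both ages, with log2 fold changes of -1.40 and -1.59. The summed level of the principal cell genes was 1234, 768 and 1061 CPM at 3 months, 444, 347 and 534 CPM at 12 months and 615, 423 and 636 CPM at 24 months. The 5 genes of the urothelium, which lines the renal pelvis, summed to 125, 21.2 and 108 CPM at 3 months, to between 1.37 and 4.49 CPM at 12 months and to between 18.04 and 46.8 CPM at 24 months. The summed level of the fibroblast genes went from between 124 and 142 CPM at 3 months to between 192 and 233 CPM at 24 months, and the macrophage genes from between 115 and 185 CPM to between 188 and 249 CPM, both without overlap. By single genes 0 of 7 fibroblast genes were called by edgeR, with 3 at an unadjusted p under 0.05 and 2 called by DESeq2, and 1 of 11 macrophage genes was called up, with 7 at an unadjusted p under 0.05 and 5 called up by DESeq2. The 7 genes of the distal convoluted and connecting tubule had lower sums at 24 months, without overlap. These lay between 2339 and 2655 CPM at 3 months and between 1698 and 2037 CPM at 24 months. Klk1 was called down, with means of 1791 and 866 CPM, and the sodium-calcium exchanger Slc8a1 was called up. DESeq2 also called up Slc12a3, at means of 302 CPM at 3 months and 559 CPM at 24 months. Of 12 proximal tubule genes 3 were called up, the glucose transporter Slc5a2 (3.68-fold), Slc5a12 (2.95-fold) and Miox (1.67-fold). The part of these cell types in the lower values of Atp6v1c2, Rhbg and Atp6v1g3 was not tested.

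The members did not vary as 1 block across the 9 kidneys. Of the 10 members, 8 had their lowest level in both libraries rich in short transcripts, that is, in replicate 3 among the 3-month-old and in replicate 2 among the 12-month-old kidneys. The 2 that did not were Atp6v1g3 and Atp6v1c2, which were lowest in replicate 2 at 3 months and in replicate 1 at both later ages. Replicate 2 at 3 months was the kidney poorest in short transcripts, with a median log2 deviation of -0.35. Atp6v1g3 and Atp6v1c2 have 1887 and 2174 bases of exon, and Rhbg has 1937. The part of transcript length in these levels was not tested beyond a fit with the length trend removed, also added after the data were seen. In that fit the log2 fold changes at 24 against 3 months were -1.04 for Atp6v1c2 (adjusted p = 0.0221) and -0.73 for Atp6v1g3 (adjusted p = 0.047).

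All 45 pairs of members were correlated on log2 CPM, with exact permutation tests over the 9 kidneys and adjustment over the 45 pairs. These tests exchange kidneys across ages and take account neither of age nor of the replicate number. Pearson's r passed an adjusted p of 0.05 in 21 pairs and Spearman's rho in 8. The 7 members Foxi1, Slc4a1, Slc26a4, Atp6v1b1, Atp6v0d2, Atp6v0a4 and Aqp6 had r between 0.52 and 0.95 in all pairs among them. Not all of these pairs passed the test. Their r lay between 0.73 and 0.98 within the older kidneys. It lay between -0.20 and 0.90 without the 2 kidneys farthest from the median of a pair's first gene. Atp6v1b1 and Aqp6 had an r of 0.95 (adjusted p = 0.00335) and a rho of 0.93 (adjusted p = 0.00843), and r was 0.90 without the 2 kidneys farthest from the median of Atp6v1b1 and 0.96 within the 6 older kidneys. Atp6v1g3 and Atp6v1c2 had an r of 0.94 (adjusted p = 0.0031) and a rho of 0.97 (adjusted p = 0.00744), and r was 0.90 both without the 2 farthest kidneys and within the older ones. None of the 4 links between a gene of the first and a gene of the second pair passed the exact test, with r from -0.20 for Atp6v1g3 and Aqp6 to 0.27 for Atp6v1b1 and Atp6v1c2. Atp6v1b1 and Atp6v1c2 had an r of 0.27 (adjusted p = 0.575) and a rho of 0.28 (adjusted p = 0.548), and r was 0.12 without the 2 farthest kidneys and 0.06 within the older ones. By Pearson's r, Rhbg passed the test with Atp6v1c2 but with no other gene of these pairs. It had an r of 0.86 with Atp6v1c2 (adjusted p = 0.0128), a rho of 0.70 (adjusted p = 0.0927), and an r of 0.74 without the 2 farthest kidneys and 0.43 within the older ones. With Atp6v1g3, Atp6v1b1 and Aqp6 its r was 0.70, 0.69 and 0.53, with adjusted p-values of 0.0714, 0.0775 and 0.208. Its rho with these 3 genes was 0.58, 0.77 and 0.53, with adjusted p-values of 0.174, 0.0642 and 0.207. Within the older kidneys its r with them was 0.04, 0.92 and 0.77. There Rhbg was thus closer to Atp6v1b1 and Aqp6 than to Atp6v1c2. Outside both pairs, with Slc4a1 it had an r of 0.87 (adjusted p = 0.00837) and a rho of 0.93 (adjusted p = 0.00843), and with Atp6v0d2 an r of 0.83 (adjusted p = 0.0111) and a rho of 0.85 (adjusted p = 0.039). These pairs and the 7 members were singled out after all 45 values were seen, and the 3-month-old kidneys are too few for a value of their own.

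**Figure D5:**
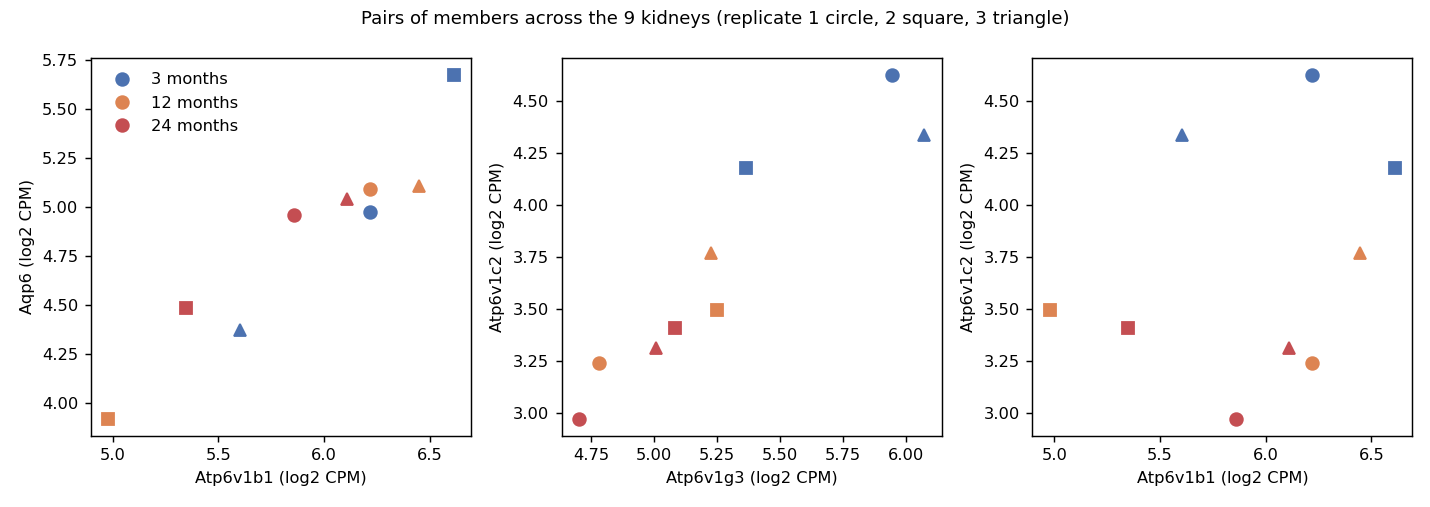
Log2 CPM of 3 pairs of members, 1 point per kidney, colours for age and symbols for the replicate number. Atp6v1b1 and Aqp6 rise together (r of 0.95), Atp6v1g3 and Atp6v1c2 rise together (r of 0.94), and Atp6v1b1 with Atp6v1c2 does not form a line (r of 0.27).

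The genes whose pattern over the 9 kidneys was most like the mean of the 10 members, among 13309 other tested genes whose mean reached 1 CPM, were Rhcg with an r of 0.98, Kcne1 with 0.98, Becn1 with 0.97, Scnn1g with 0.96 and Slc44a3 with 0.95. This is a description over points that share age, depth and library. Rhcg, the apical ammonia transporter, had 112, 114 and 79.1 CPM at 3 months, 70.3, 33.9 and 85.6 CPM at 12 months and 62.3, 48.6 and 67.5 CPM at 24 months. Becn1, an autophagy gene, stayed within a narrow range of 93.1 to 103 CPM. Scnn1g, a subunit of the epithelial sodium channel, belongs to the principal cell.

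The stretches before the start sites of both correlated pairs, and of the member that fell in PTEC, are shown because Foxi1 is a forkhead factor. RefSeq windows of 300 bases, 250 before to 50 after the start, on GRCm38.p6 were found for 7 of the 10 members, and they were searched on both strands for the forkhead core TGTTTNC. It occurred in 4 of the 7, in Atp6v1b1, Atp6v1g3, Slc26a4 and Foxi1, and in 20.5% of all 32851 windows. In the lines below, up to 250 bases before the RefSeq start are given, ended before any GENCODE M21 exon of the gene, 5′ to 3′ on the strand of the gene, and capitals mark a match. Atp6v1b1 lies at chr6:83742767-83742989 on the plus strand, with the match beginning at position -98 relative to the start. Atp6v1g3 lies at chr1:138273488-138273737 on the plus strand, with the match at -136. Atp6v1c2 lies at chr12:17324731-17324980 and Atp6v0a4 at chr6:38124587-38124836, both on the minus strand and without a match. Aqp6 lies at chr15:99600950-99601199 on the plus strand, also without a match. The stretch of Atp6v1c2 lies between exons of longer GENCODE M21 transcripts.
Atp6v1b1: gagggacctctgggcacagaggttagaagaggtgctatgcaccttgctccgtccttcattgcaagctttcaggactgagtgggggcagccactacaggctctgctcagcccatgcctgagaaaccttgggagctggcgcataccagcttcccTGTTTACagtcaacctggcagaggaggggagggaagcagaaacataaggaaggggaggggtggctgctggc
Aqp6: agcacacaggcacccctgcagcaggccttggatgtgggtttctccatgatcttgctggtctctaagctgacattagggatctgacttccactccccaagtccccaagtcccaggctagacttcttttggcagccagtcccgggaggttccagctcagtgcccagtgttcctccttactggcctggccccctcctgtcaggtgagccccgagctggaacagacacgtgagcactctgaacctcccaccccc
Atp6v1g3: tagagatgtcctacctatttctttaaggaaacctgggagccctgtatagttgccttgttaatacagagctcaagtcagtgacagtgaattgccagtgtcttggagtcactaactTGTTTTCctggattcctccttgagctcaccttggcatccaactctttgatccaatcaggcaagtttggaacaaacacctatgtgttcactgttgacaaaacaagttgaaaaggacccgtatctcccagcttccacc
Atp6v1c2: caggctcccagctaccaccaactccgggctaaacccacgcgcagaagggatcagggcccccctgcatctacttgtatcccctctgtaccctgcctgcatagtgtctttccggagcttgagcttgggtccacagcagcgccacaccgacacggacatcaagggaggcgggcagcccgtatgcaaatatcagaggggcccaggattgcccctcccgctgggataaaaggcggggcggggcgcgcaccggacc
Atp6v0a4: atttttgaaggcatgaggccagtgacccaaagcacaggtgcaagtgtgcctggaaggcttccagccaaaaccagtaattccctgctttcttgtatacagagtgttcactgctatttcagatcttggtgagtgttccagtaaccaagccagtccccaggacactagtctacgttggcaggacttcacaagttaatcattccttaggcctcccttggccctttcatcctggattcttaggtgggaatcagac

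Thus the correlated genes Atp6v1g3 and Atp6v1c2 differed in this respect, as did Atp6v1b1 and Aqp6. A match is a description of the letters and not a binding site, and a window without one says nothing about Foxi1.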

How the data were processed

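RNA from 8 PTEC cultures and 9 kidneys had been sequenced by the authors as stranded poly(A) libraries in paired-end reads and processed with nf-core/rnaseq on GRCm38. The values the authors deposited are raw read counts for each gene. Which aligner and counter made them, and with what strand option, is not given in the sources used here. The gene sets held 53715 identifiers for PTEC, 54146 for kidneys aged 3 months and 55401 for those aged 12 and 24 months, of which 53313 are common to all. Symbols, positions and exon lengths were taken from GENCODE M21. The members, the gene lists and the alternatives were chosen with earlier results of these data known.

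Counts were scaled with TMM, filtered with filterByExpr and compared with the quasi-likelihood test of edgeR 4.0.16 in R 4.3.3, with robust estimation and Benjamini-Hochberg adjustment over all tested genes. A gene was called when its adjusted p was under 0.05 and its log2 fold change was beyond 0.5 in size. PTEC and kidneys were fitted apart, and all kidneys together. Adjusted p-values of genes come from edgeR where DESeq2 (1.42.0) is not named, and SE is the log2 fold change divided by the root of the F statistic. The labels do not say whether cultures came from separate mice, so the p-values measure the spread between these samples. Isoform ratios and correlations used log2 CPM with a prior count of 2. The exact permutation tests enumerated every arrangement, with numpy 2.4.6 in Python 3.11.15. The method was tested on simulated data. No replicate pair agreed within sampling noise.

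Named genes are the members, their isoform partners, the extremes of each list named and the 5 genes most like the members; a few others were named after their values were seen. Deviations of same-numbered PTEC cultures correlated with r from 0.186 to 0.614, and those of 24- and 12-month-old kidneys with r from 0.172 to 0.557. Same-numbered samples of these groups may therefore be paired, although the labels name no shared animal or batch. The main fits used the group only, so their p-values leave this possible pairing out, and the replicate block was an alternative. The numbers did not pair kidneys with those of 3 months (r from -0.701 to -0.034). Alternatives were DESeq2, RLE scaling, no filter, a threshold of 1, a replicate block, each library left out and the compared ages alone. Removal of the length trend, and leaving out both libraries rich in short transcripts, as well as the exact test of paired isoform ratios, were added after the data were seen. Totals of reads counted on genes ranged from 26963442 to 66894790 per library, and 3 reads correspond to 0.0456 to 0.118 CPM.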

Additional observations from a re-analysis of the deposited data

Results flagged for a closer look

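In groups of 4 cultures, single cultures stood apart from the other 3 by Dixon's criterion, which chance meets in about 1 of 20 groups. The criterion was applied to 20 groups. Atp6v1b1 was at 0.443 CPM, or 12 reads, in replicate 4 of the non-senescent PTEC, while the next culture was at 0.0922 CPM. Rhbg was at 0.0322 CPM in replicate 1 of the senescent PTEC, which is 1 read, while the other 3 cultures had 0 reads. A single read against none always meets the criterion, so nothing can be read from this value.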

How the results depend on the processing

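The fall of Atp6v0a4 in senescent PTEC was called in each alternative run, whereas the kidney calls depended on the fit, and the cause was not tested. In PTEC 2 members were called down without the filter on low counts, against 1. At 24 against 3 months the 1 call became 2 without the filter, with the compared ages alone or with the length trend removed, 3 with DESeq2 or without both libraries rich in short transcripts, and between 0 and 2 with single libraries left out, the 2 being reached without 3-month replicate 2. With the replicate block it became 0, Atp6v1c2 having a log2 fold change of -1.16 and an adjusted p of 0.0791; the block changed no member call in the other comparisons, but with same-numbered cultures paired the log2 ratio of Atp6v0a4 to Atp6v0a1 in PTEC, lower by a difference of -4.13, had an exact p of 0.125, the smallest that 4 pairs allow. At 12 against 3 months the 0 calls became 1 with DESeq2 or with the length trend removed, and between 0 and 2 with single libraries left out.

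The signs that turned belonged to members not called in the comparison concerned with the settings of the report. Without both libraries rich in short transcripts, Atp6v0a4 was at -0.10 at 24 against 3 months, and at 24 against 12 months Slc26a4 was at -0.19, Atp6v0d2 at -0.11 and Aqp6 at -0.24. At 24 against 12 months Foxi1 was at 0.035 and Atp6v0a4 at 0.0068 with the replicate block on the compared ages alone, and Foxi1 at 0.10 with the length trend removed and the replicate block. With single libraries left out, the ranges that crossed 0 at 24 against 3 months were those of Aqp6 from -0.52 to 0.15 and Atp6v0a4 from -0.094 to 0.30. At 12 against 3 months they were those of Foxi1 from -0.75 to 0.013, Atp6v1b1 from -0.47 to 0.14, Atp6v0a4 from -0.078 to 0.33 and Aqp6 from -0.57 to 0.10. At 24 against 12 months they were those of Foxi1 from -0.34 to 0.43, Slc4a1 from -0.37 to 0.14, Slc26a4 from -0.20 to 0.49, Atp6v1b1 from -0.53 to 0.079, Atp6v0d2 from -0.12 to 0.40, Atp6v0a4 from -0.25 to 0.16 and Aqp6 from -0.25 to 0.23, and of the log2 ratios of Atp6v1b1 to Atp6v1b2 from -0.48 to 0.082 and of Atp6v0d2 to Atp6v0d1 from -0.26 to 0.15.

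Counts over all genes moved more. Those called up and down at 24 against 3 months were 322 and 77, 727 and 308 with DESeq2, 102 and 24 with the block, 208 and 57 with the ages alone and 405 and 124 with the length trend removed. With single libraries left out they ranged from 52 to 460 and from 22 to 334. At 12 against 3 months they were 209 and 232, with single libraries left out from 31 to 249 and from 21 to 467, 531 and 576 with DESeq2, 52 and 66 with the block, 38 and 26 with the ages alone and 46 and 34 without both libraries. At 24 against 12 months they were 153 and 74, 493 and 286 with DESeq2, and 44 and 23 without both libraries, and with single libraries left out from 0 to 55 and from 1 to 8. In PTEC they were 3100 and 3044, and 2067 and 1686 at a threshold of 1. The 3-month-old kidneys were the shallowest, and an exact test of 3 against 3 mice cannot pass 0.05.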
